A study of Homo sapiens with 4 samples.

Results

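Regions of open chromatin at the starts of long noncoding RNA (lncRNA) genes were examined in the human melanoma cell line A375. ATAC-seq was used, an assay whose Tn5 enzyme inserts sequencing adapters wherever DNA is accessible. All cells were grown in serum-containing medium and were kept for 48 h with 1 mM of the medium-chain fatty acid octanoate or with isopropanol, the vehicle. Each group had 2 libraries, 4 in all, and all came from this 1 cell line. The labels do not say whether the libraries came from separate cultures, so the p-values measure the spread between these libraries, which may be technical.

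A region was taken as a lncRNA start region if it lay within 1 kb of the strand-aware start of a RefSeq GRCh38 lncRNA gene and more than 5 kb from either end of every protein-coding gene. The rule used position alone and found 2320 of 125985 nuclear regions (1.84%). They lay at the starts of 2326 lncRNA genes. Strand was known for 11462 of 18330 lncRNA genes, and the genes without one, among them those of chromosome 8, are left out of the set. Adding them, with either end taken as a possible start, is among the alternatives in the closing section. The authors' comparison gave an adjusted p to 378 of the 2320 regions, those whose mean over the 4 libraries reached 63.8 normalized reads. These are called tested regions, and the other 1942 were too weak to be tested. The table gives 1 mean and 1 fold change for a region and no value for a single library, so the spread between libraries is seen only through the authors' standard errors.

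A lncRNA is a transcript that is not translated into a known protein. Some lncRNAs act in the nucleus as scaffolds or guides for chromatin proteins, others are precursors of microRNAs or small nucleolar RNAs, and for many the act of transcription or the DNA element at the start matters more than the RNA. Their starts fall into broad kinds: CpG-rich promoters like those of protein-coding genes, and CpG-poor starts that resemble enhancers, which are often transcribed as well. Most lncRNA genes with a LOC symbol have no described function.

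A few lncRNA starts were more accessible after octanoate and none was less accessible by the same test, while fold changes over the whole table lay mostly above 0 (72.1% of nuclear regions and 75.1% of lncRNA start regions). Of the 378 tested regions, 8 passed an adjusted p of 0.05 by DESeq2 with Benjamini-Hochberg adjustment per the authors' deposited table, all 8 higher after octanoate. That is 2.12% of the tested lncRNA start regions, and 1.02% of all 11185 tested regions passed. With an adjusted p under 0.1 the number was 15, where 2.98% of all tested regions passed, and with adjustment over all 125986 listed regions it was 3, where 0.0198% passed. The log2 fold changes of the 8, octanoate over vehicle, ran from 0.48 to 0.96 with a median of 0.67 per the authors' deposited table. At an unadjusted p under 0.05, 66 tested lncRNA start regions were higher (17.5%, against 14.8% of all tested regions) and 0 were lower (0.107% of all tested regions were). The median over all 2320 regions was 0.21 per the authors' deposited table, and it was 0.20 over the 378 tested ones. The same medians were 0.23 over all nuclear regions and 0.19 over all tested regions. Measured from that shared median of 0.19, 0 of the 8 kept an adjusted p under 0.05 (0.0536% of all tested regions had one), their adjusted p running from 0.157 to 1. From this centred value, 13 tested lncRNA start regions were higher and 5 lower at an unadjusted p under 0.05 (3.44% and 1.32%, against 3.16% and 1.01% of all tested regions).

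**Figure D1:**
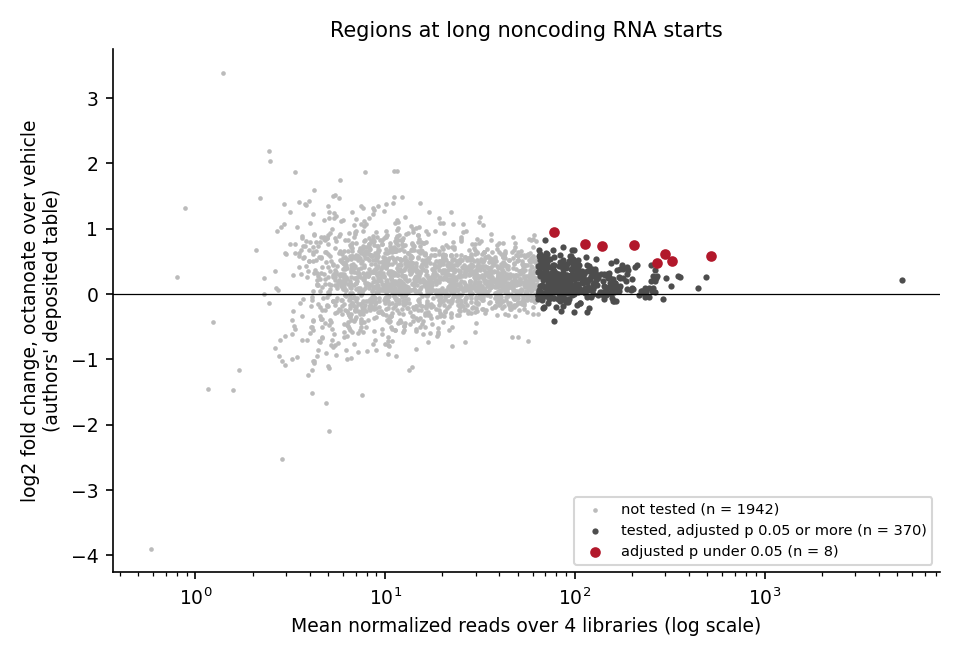
Log2 fold change (octanoate over vehicle, from the authors' deposited table) against the mean normalized read count on a log axis for the 2320 lncRNA start regions, 1 point each. The 8 red points passed an adjusted p of 0.05 and all lie above 0, while weak regions to the left scatter widely on both sides of 0.

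The starts that carried the results are printed first, from the RefSeq promoter table of GRCh38.p14, which holds 250 bases before and 50 after a start, read 5′ to 3′ on the gene's strand. The first 5 belong to regions that were higher after octanoate, and MIR17HG and MIR31HG are shown beside them as strong CpG-rich starts with fold changes near or below 0. Each window lies wholly within its open region. Capitals mark letters matching, on either strand and with overlapping matches counted, any of the following motifs. For AP-1 the letters were TGANTCA, for the E-box CACGTG, for the M-box bound by MITF TCATGTG, and for the CRE bound by CREB TGACGTCA. For the GC box they were GGGCGG, for the TATA box they were TATAAA, and the motif named after the letters CCAAT was searched by those letters. The PPAR response element, a direct repeat bound by PPAR and RXR, was searched as well.
LINC02361 (chr12:132189646-132189945, minus strand): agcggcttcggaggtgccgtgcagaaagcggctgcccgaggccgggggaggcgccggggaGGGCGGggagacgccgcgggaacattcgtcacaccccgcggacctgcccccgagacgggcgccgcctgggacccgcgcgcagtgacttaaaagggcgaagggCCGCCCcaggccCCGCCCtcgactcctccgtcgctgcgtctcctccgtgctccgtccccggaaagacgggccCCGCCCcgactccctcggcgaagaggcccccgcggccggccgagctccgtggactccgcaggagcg
LOC124901788 (chr7:155951035-155951334, plus strand): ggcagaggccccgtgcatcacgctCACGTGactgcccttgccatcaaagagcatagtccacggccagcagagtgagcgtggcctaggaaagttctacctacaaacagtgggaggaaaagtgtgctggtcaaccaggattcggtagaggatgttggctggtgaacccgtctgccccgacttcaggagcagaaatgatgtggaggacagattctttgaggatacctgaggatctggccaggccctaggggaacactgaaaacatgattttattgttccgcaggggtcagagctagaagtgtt
LOC124901783 (chr7:155205454-155205753, plus strand): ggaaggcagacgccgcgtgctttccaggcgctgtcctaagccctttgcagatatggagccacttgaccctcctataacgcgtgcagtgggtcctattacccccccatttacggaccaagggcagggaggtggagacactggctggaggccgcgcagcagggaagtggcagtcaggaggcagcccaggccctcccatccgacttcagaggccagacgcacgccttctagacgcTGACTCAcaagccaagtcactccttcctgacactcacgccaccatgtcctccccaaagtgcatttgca
LOC124904554 (chr1:234657148-234657447, minus strand): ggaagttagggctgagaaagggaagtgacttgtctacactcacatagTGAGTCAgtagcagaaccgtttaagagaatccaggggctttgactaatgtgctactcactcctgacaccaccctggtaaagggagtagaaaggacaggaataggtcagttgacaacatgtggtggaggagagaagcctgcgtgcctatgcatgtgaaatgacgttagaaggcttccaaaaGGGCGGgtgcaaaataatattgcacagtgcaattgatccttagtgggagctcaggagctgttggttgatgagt
LOC124900609 (chr10:130301585-130301884, plus strand): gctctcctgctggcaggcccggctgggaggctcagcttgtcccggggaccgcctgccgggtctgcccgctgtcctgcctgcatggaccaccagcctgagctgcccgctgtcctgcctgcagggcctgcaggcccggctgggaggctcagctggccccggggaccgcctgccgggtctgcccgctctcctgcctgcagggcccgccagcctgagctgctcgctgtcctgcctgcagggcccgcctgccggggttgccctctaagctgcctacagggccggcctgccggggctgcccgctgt
MIR17HG (chr13:91347437-91347736, plus strand): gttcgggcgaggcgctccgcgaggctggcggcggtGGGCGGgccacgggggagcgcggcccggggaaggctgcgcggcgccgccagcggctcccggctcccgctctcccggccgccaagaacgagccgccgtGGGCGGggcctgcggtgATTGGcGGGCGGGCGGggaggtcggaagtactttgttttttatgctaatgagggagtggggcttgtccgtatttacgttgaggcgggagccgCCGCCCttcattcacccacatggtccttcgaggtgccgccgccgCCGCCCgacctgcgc
MIR31HG (chr9:21559749-21560048, minus strand): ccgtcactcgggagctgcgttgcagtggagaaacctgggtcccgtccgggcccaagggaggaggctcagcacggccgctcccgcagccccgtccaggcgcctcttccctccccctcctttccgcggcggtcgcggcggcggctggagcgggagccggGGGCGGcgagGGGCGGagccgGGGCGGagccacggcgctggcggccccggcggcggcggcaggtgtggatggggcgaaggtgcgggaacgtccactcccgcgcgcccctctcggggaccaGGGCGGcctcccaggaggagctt

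LINC02361 has 44 CpG dinucleotides in 300 bases, a GC content of 76.3% and 4 GC boxes, like MIR17HG with 42 CpG and 6 GC boxes and MIR31HG with 39 CpG and 4. LOC124904554 has 4 CpG, 1 AP-1 match and 1 GC box, and LOC124901783 has 14 CpG and 1 AP-1 match. LOC124901788 has 9 CpG and 1 E-box. LOC124900609 holds none of the listed words. Its letters repeat: 1 run of 10 bases occurs 4 times in the window, and 5.19% of promoters in the table hold a run repeated at least as often. How reads were placed in such repeats is not stated in the sources used here, so its value is uncertain for that reason.

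The smallest adjusted p belonged to LOC105373480, an uncharacterised lncRNA on the tip of the short arm of chromosome 2 (region 739819 to 741091). This region lay 334 bp beyond the annotated start and 62.4 kb from TMEM18, its nearest protein-coding gene end. In the authors' deposited table it had a mean of 525 normalized reads and rose by 0.58 on the log2 scale (standard error 0.11, adjusted p 0.000119). The promoter window of this gene ended before the region began, so no sequence is printed for it.

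A region at LOC102724446, on chromosome 1 from 247638834 to 247640898, 16.5 kb from the olfactory receptor gene OR14L1, rose by 0.62 per the authors' deposited table (standard error 0.13, adjusted p 0.00108, mean 298). LOC124900609, on chromosome 10 from 130300323 to 130302091, rose by 0.51 per the authors' deposited table (standard error 0.13, adjusted p 0.0190, mean 325). LINC02361, on chromosome 12 from 132189192 to 132190378 and 5.99 kb from GALNT9, an enzyme that starts O-linked glycans, had the largest rise of any tested lncRNA start region. Its log2 fold change was 0.96 per the authors' deposited table (standard error 0.24, adjusted p 0.0165), with a mean of 77.5. The LINC02361 region thus had the larger fold change, and LOC105373480 the higher mean, the smaller error and the smaller adjusted p. All 8 regions lay outside every protein-coding gene. LINC02361 lay less than 1 kb past the 5 kb limit of the rule, and with a limit of 10 kb it left the set and 7 remained.

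A pair of the 8 lay near the end of the long arm of chromosome 7, on both sides of SHH, which encodes the Sonic hedgehog ligand. LOC124901788 (155950828 to 155952466, 138 kb from SHH) rose by 0.74 per the authors' deposited table (standard error 0.15, adjusted p 0.00122, mean 204). LOC124901783 (155205144 to 155207019, 90.9 kb from INSIG1, a sterol-sensing regulator of cholesterol synthesis) rose by 0.48 per the authors' deposited table (standard error 0.13, adjusted p 0.0344, mean 272). Within this stretch and 50 kb to each side, chosen after the values were seen, there were 4 lncRNA start regions, all above 0. The other two were LOC389602 at 0.72 (adjusted p 0.0772) and LOC124901786, too weak to be tested, at 0.62 (standard error 0.52), log2 values per the authors' deposited table. The 92 regions of any kind in this stretch, the 4 included, had a median of 0.44 per the authors' deposited table. They ran from -1.36 to 1.42, and 79.3% were above 0 (72.1% of nuclear regions). Over other regions within 5 Mb of any chromosome end, described below, the median was 0.39 and 80.6% were above 0. Of the 11 tested in the stretch, 7 were higher at an unadjusted p under 0.05 (63.6%, against 14.8% of all tested regions). These 7 include 3 lncRNA start regions, 2 of which set the limits of the stretch, so part of this share was fixed by the choice. That pair held the only adjusted p under 0.05 among the 11.

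The remaining 2 rises were at LINC02848 and LOC124904554. LINC02848, on chromosome 7 from 63899962 to 63901613 and 97.2 kb from the zinc finger gene ZNF722, rose by 0.73 per the authors' deposited table (standard error 0.18, adjusted p 0.0128, mean 139). LOC124904554, on chromosome 1 from 234656564 to 234658544 and 46.4 kb from IRF2BP2, a transcriptional corepressor, rose by 0.77 per the authors' deposited table (standard error 0.20, adjusted p 0.0248, mean 113). Its region also overlaps the lncRNA gene LOC101927787. These 2 were also the ones far from a chromosome end, at 63.9 Mb and 14.3 Mb. The other 6 lay within 5 Mb of one.

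Position along the chromosome went with the values of the whole set. Of 49 tested lncRNA start regions within 5 Mb of a chromosome end, 6 passed an adjusted p of 0.05 per the authors' deposited table (12.2%), and of the 329 elsewhere 2 did (0.608%), against 1.02% of all tested regions. The median log2 fold change per the authors' deposited table was 0.29 over the 289 lncRNA start regions near an end and 0.20 over the other 2031. Other regions as far from protein-coding gene ends, which hold no start of a lncRNA gene with a known strand but can hold starts of those without one, had medians of 0.39 and 0.24 per the authors' deposited table, so the same ordering was present in them. Of these other regions 25 of 341 tested near an end passed an adjusted p of 0.05 (7.33%), and 53 of 3713 elsewhere (1.43%), per the authors' deposited table. By unadjusted p the order near an end was the reverse, with 36.7% of the 49 lncRNA start regions and 42.2% of the 341 other regions higher. The 5 Mb limit came from earlier results of these data.

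**Figure D2:**
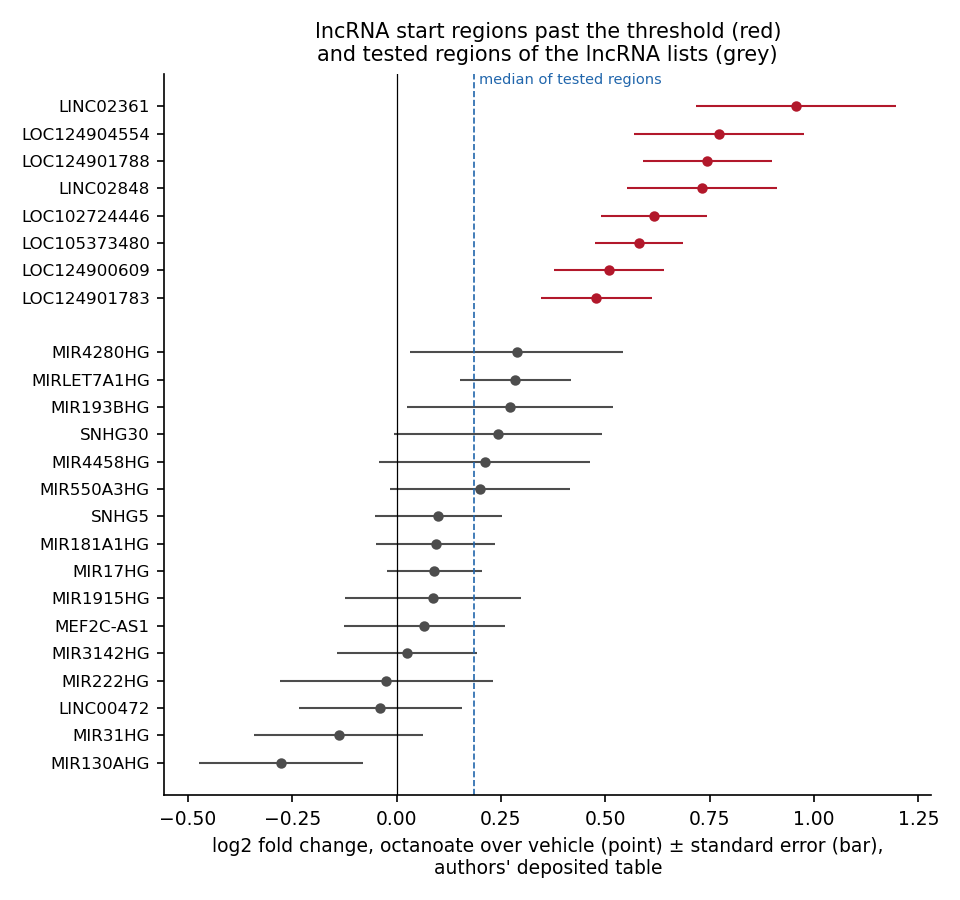
Log2 fold change (point) and standard error (bar), both from the authors' deposited table, of the 8 lncRNA start regions past the threshold (red) and of the tested regions of the 3 lncRNA lists (grey). The red points run from 0.48 to 0.96, all right of the dashed line at the median of tested regions (0.19), and the grey points run from -0.28 to 0.29.

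No tested lncRNA start region was lower at an unadjusted p under 0.05. The lowest log2 fold changes per the authors' deposited table were -0.42 at LOC105376233 (standard error 0.24, adjusted p 0.399), -0.28 at MIR130AHG (standard error 0.20, adjusted p 0.518), and -0.27 at LOC107985362 (standard error 0.23, adjusted p 0.599). LOC124904273 and LOC105374040 followed with -0.26 and -0.22 per the authors' deposited table (adjusted p 0.631 and 0.628). LOC105376233 starts on chromosome 9 within 115262258 to 115263397, 144 kb from TNC, the gene of the matrix protein tenascin C, and its region overlaps DELEC1. The regions at LOC124904273 and LOC105374040 cover listed starts of the protein-coding genes KCTD1 and PHLDB2, so their values cannot be told apart from those of these promoters. MIR130AHG lay 5.02 kb from YPEL4, so it entered the set by a narrow margin. At the upper end ASIC2-AS2, inside the gene of the ion channel ASIC2, was the 1 region among the 5 largest that missed the threshold, with 0.83 per the authors' deposited table (standard error 0.25, adjusted p 0.0675).

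Of the 5 lncRNA start regions with the highest means, 1 was among the 8 rises. LOC101928626 (chromosome 1, 628986 to 635021) had the highest mean, 5314 normalized reads, and a value of 0.21 per the authors' deposited table (standard error 0.072, adjusted p 0.108). It overlaps 7 pseudogenes copied from mitochondrial genes, so reads of mitochondrial DNA could be placed there and the value is uncertain as a measure of the lncRNA start. LOC105373480 was next. LINC01003 (mean 489) and LINC00355 (mean 357) had log2 fold changes of 0.27 and 0.26 per the authors' deposited table, with adjusted p of 0.208 and 0.282. MIR17HG (mean 448) had 0.09 (standard error 0.11, adjusted p 0.742) per the authors' deposited table. Its 95% interval from that error was -0.13 to 0.31, which contains the shared median of 0.19.

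MicroRNA host genes are lncRNAs whose transcripts are cut into microRNAs. Of 87 such genes in RefSeq, whose symbols begin with MIR and end in HG, 69 had a strand and 29 had a lncRNA start region, 30 regions in all. The median of these 30 was 0.15 per the authors' deposited table, against 0.23 over all nuclear regions. Of the 12 tested, 0 had an adjusted p under 0.05, where 1.02% of all tested regions did, so a count of 0 among 12 does not set the hosts apart. In addition 1 was higher at an unadjusted p under 0.05 (8.33%, against 14.8% of all tested regions). Their median was 0.09 per the authors' deposited table, and 3 of the 12 were below 0. Lists and members were chosen with earlier results of these data known, and this median is a description.

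MIR17HG encodes the miR-17-92 cluster, which MYC is known to activate and which promotes proliferation in many cancers. MIR31HG carries miR-31, and MIR222HG carries miR-221 and miR-222, which restrain KIT and the cell cycle inhibitor p27 and have been studied in melanoma. A choice of mature microRNAs in these hosts, from RefSeq with bases 2 to 8, the seed that pairs with targets, in capitals, is printed to show shared seeds: miR-17-5p with miR-20a-5p, miR-19a-3p with miR-19b-3p, and miR-221-3p with miR-222-3p. MicroRNA levels were not measured here.
hsa-miR-17-5p: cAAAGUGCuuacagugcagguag
hsa-miR-20a-5p: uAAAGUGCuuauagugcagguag
hsa-miR-18a-5p: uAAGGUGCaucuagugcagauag
hsa-miR-19a-3p: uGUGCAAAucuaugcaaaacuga
hsa-miR-19b-3p: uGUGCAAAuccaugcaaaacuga
hsa-miR-92a-3p: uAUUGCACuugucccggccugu
hsa-miR-31-5p: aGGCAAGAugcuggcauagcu
hsa-miR-221-3p: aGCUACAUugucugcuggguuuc
hsa-miR-222-3p: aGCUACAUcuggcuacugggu

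The values of the 12 tested host regions lay between -0.28 and 0.29 per the authors' deposited table. The MIR31HG start (chromosome 9, 21558820 to 21560369, mean 106) had a log2 fold change of -0.14 per the authors' deposited table (standard error 0.20, adjusted p 0.785). At MIR222HG (chromosome X, 45770022 to 45771849, mean 69.2) the value was -0.02 per the authors' deposited table (standard error 0.26, adjusted p 0.975). MIR181A1HG, host of miR-181a and miR-181b, had 0.09 per the authors' deposited table with a mean of 233 (standard error 0.14, adjusted p 0.794). MIR3142HG, whose transcript also gives miR-146a, had 0.03 per the authors' deposited table with a mean of 160 (standard error 0.17, adjusted p 0.961). The highest tested host regions per the authors' deposited table were MIR4280HG at 0.29 (adjusted p 0.623), MIRLET7A1HG, host of let-7a, let-7f and let-7d, at 0.28 (adjusted p 0.284, unadjusted p 0.0328) and MIR193BHG at 0.27 (adjusted p 0.633). Among host regions too weak to be tested, MIR3147HG had 0.91 per the authors' deposited table with a mean of 35.9 and an unadjusted p of 0.00967. Its region also overlaps the gene LOC105375299. MIR34AHG, host of the p53 target miR-34a, had 0.27 with a standard error of 0.39. The MIR34AHG region also covers the start of the lncRNA gene LNCTAM34A, and the starts cannot be told apart.

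A list of 43 lncRNAs studied in melanoma, the neural crest or cancer was followed as well. RefSeq held 39 of these as lncRNA genes, 28 had a strand, and 10 had a lncRNA start region. For 11 more the start had a region that lay too close to a protein-coding gene end, and 7 had no region at the start. The 10 regions had a median log2 fold change of 0.01 per the authors' deposited table, 5 above 0 and 5 below. The 4 that were tested were LINC00472, MEF2C-AS1, MIR31HG and SNHG5, and 0 had an adjusted p under 0.05 (1.02% of all tested regions did). At an unadjusted p under 0.05, 0 of the 4 were higher or lower (14.8% and 0.107% of all tested regions were). Counts of 0 among 4 do not set the list apart.

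MALAT1, an abundant RNA of nuclear speckles, had a start region (chromosome 11, 65497194 to 65497966) with a mean of 60.1, just under the level tested. Its log2 fold change was -0.20 per the authors' deposited table, with a standard error of 0.27. NBAT1, which lies with CASC15 on chromosome 6, had -0.31 (standard error 0.32), and its region was 672 bp from the start, within CASC15. DIRC3, a melanoma lncRNA near IGFBP5, had 0.28 with a standard error of 0.77 and a mean of 8.14 per the authors' deposited table. PAUPAR, next to the eye regulator PAX6, had -1.24 with a standard error of 1.17 and a mean of 3.92 per the authors' deposited table. With errors of this size a change such as those of the 8 rises was not detectable at PAUPAR or DIRC3. MEF2C-AS1 (mean 117) had 0.07 and LINC00472 (mean 116) had -0.04 per the authors' deposited table, with standard errors of 0.19 and 0.20. The MEF2C-AS1 region also covers a listed start of MEF2C, and the starts cannot be told apart.

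Host genes of small nucleolar RNAs make transcripts whose introns release small nucleolar RNAs, many of which guide the modification of ribosomal RNA. Of 31 such genes 27 had a strand, of which 21 had a region only too near a protein-coding gene end, 2 had none, and 4 had a lncRNA start region. SNHG5 (mean 201) had a log2 fold change of 0.10 per the authors' deposited table (standard error 0.15, adjusted p 0.793), and SNHG30 had 0.24 (standard error 0.25, adjusted p 0.677). SNHG11 and SNHG33 had -0.09 and -0.01 per the authors' deposited table and were not tested.

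By name, LOC genes made up 1414 of the 2320 regions, with a median of 0.23 per the authors' deposited table. Of their 196 tested regions 6 passed an adjusted p of 0.05 (3.06%). LINC genes, named as intergenic, made up 470 regions with a median of 0.21 per the authors' deposited table, and 2 of their 76 tested regions passed (2.63%). These shares lay close to each other, and 1.02% of all tested regions passed. Antisense lncRNAs, named -AS, accounted for 259 regions, median 0.18 per the authors' deposited table, and their 64 tested regions had 0.09 and 0 calls. In this class 9.38% of tested regions were higher at an unadjusted p under 0.05, against 14.8% of all tested regions.

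Values also differed with whether the region sat inside a protein-coding gene. The 643 lncRNA start regions inside the span of one had a median of 0.19 per the authors' deposited table and 0.12 over their 131 tested regions, with 0 calls by adjusted p and 13 regions higher at an unadjusted one (9.92%). The 1677 outside every such span had 0.23, and 0.23 over 247 tested regions, with all 8 calls (3.24%) and 53 higher at an unadjusted p under 0.05 (21.5%). Over all tested regions these shares were 1.02% and 14.8%. Of the regions inside a span, 170 also lay within 1 kb of another RefSeq start of a protein-coding gene, which the rule did not consider. Those 170 had a median of 0.11 per the authors' deposited table, 85 were tested, and 5.88% of the 85 were higher at an unadjusted p under 0.05, against that 14.8%. Accessibility there cannot be told apart from that of the protein-coding promoter. The remaining 473 regions inside a span had a median of 0.21 over all and 0.12 over 46 tested regions per the authors' deposited table. Of these 46, 8 were higher at an unadjusted p under 0.05 (17.4%, against 14.8% of all tested regions), so the low share inside genes was not seen in this part.

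The set was then placed between protein-coding starts and other regions. The 10410 regions within 1 kb of a protein-coding start had a median log2 fold change of 0.14 per the authors' deposited table, 0.075 below that of the lncRNA starts. Strand was known for 15842 of 20052 protein-coding genes, and starts of the others are left out here and below. The 97977 other regions more than 5 kb from protein-coding gene ends, among them starts of lncRNA genes with no strand, had 0.25, which puts lncRNA starts 0.042 below them. In tested regions alone the medians per the authors' deposited table were 0.16, 0.20 and 0.25, in the same order. An adjusted p under 0.05 was reached by 15 of 5190 tested protein-coding start regions (0.289%) and 78 of 4054 tested other regions (1.92%). With no value per library, no test of these differences over samples could be made. By chromosome, the lncRNA start median exceeded the protein-coding median in 21 of 22 chromosomes with at least 20 members, the exception being chromosome 5 (0.159 against 0.163). It was below that of the other regions in 17 of the 22.

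**Figure D3:**
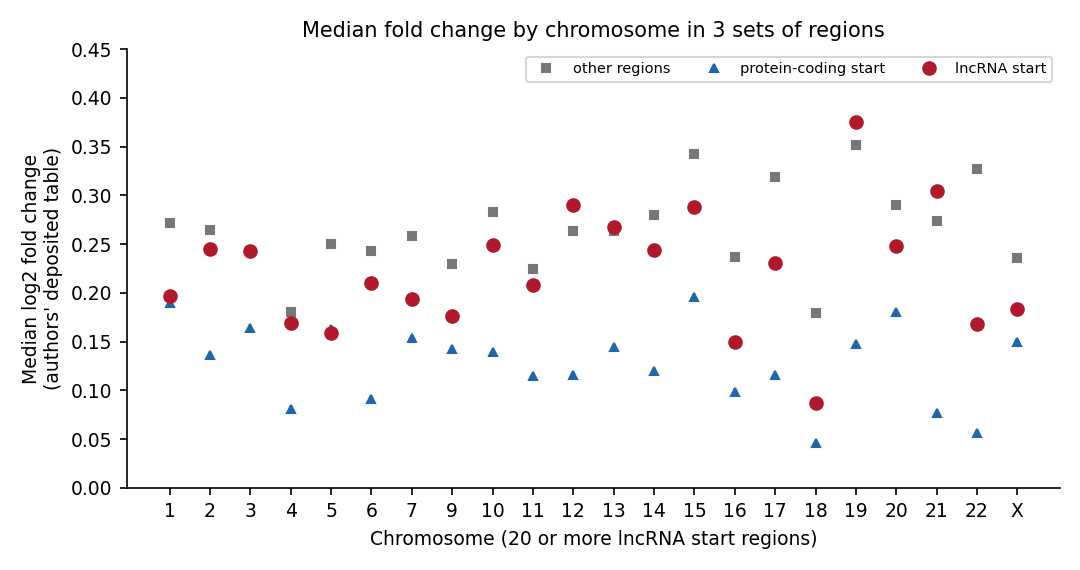
Median log2 fold change (authors' deposited table) by chromosome for lncRNA start regions (red circles), protein-coding start regions (blue triangles) and other regions more than 5 kb from protein-coding gene ends (grey squares). Red circles lie above the blue triangles in 21 of 22 chromosomes and range from 0.087 on chromosome 18 to 0.375 on chromosome 19.

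Signal strength differed among these sets, with median means of 20.2 normalized reads at lncRNA starts, 63.6 at protein-coding starts and 10.8 in other regions. Regions were therefore compared within 5 equal bins of mean signal over all nuclear regions. In the weakest bin the medians per the authors' deposited table were 0.27 at lncRNA starts, 0.08 at protein-coding starts and 0.31 in other regions. The middle bin gave 0.24, 0.11 and 0.24, and the strongest bin 0.19, 0.14 and 0.25, per the authors' deposited table. LncRNA starts lay above protein-coding starts in all 5 bins, and below other regions in 4 of the 5, by most in the strongest.

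**Figure D4:**
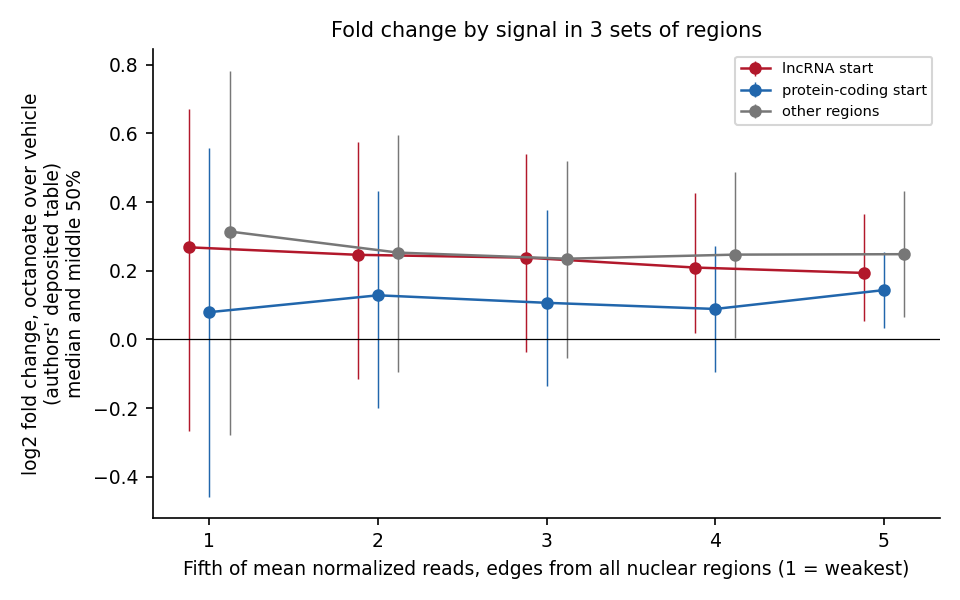
Median log2 fold change (points) and middle 50% of regions (bars), from the authors' deposited table, by bin of mean normalized reads (5 bins) for 3 sets of regions. The lncRNA start line runs from 0.27 in the weakest to 0.19 in the strongest bin and stays above the protein-coding line throughout. Bars show the spread between regions, not between libraries.

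CpG content of the promoter window, which the rule did not use, also went with the values of lncRNA starts. The window had a median of 5 CpG at lncRNA start regions and 26 at protein-coding start regions, and a median GC content of 50.3% and 65.3%. The 1015 lncRNA start regions with under 5 CpG had a median log2 fold change of 0.25 per the authors' deposited table, and the other regions away from gene ends also had 0.25. The 442 with 20 or more CpG had 0.15, close to the 0.14 of the 7281 protein-coding start regions with as many CpG. The 612 protein-coding start regions with under 5 CpG had 0.19 per the authors' deposited table, so their median was lower at high CpG as well. Among tested regions alone, the medians per the authors' deposited table were 0.28 (85 regions with under 5 CpG) and 0.17 (172 regions with 20 or more), against 0.16 in both protein-coding classes (139 and 4028 regions). At an unadjusted p under 0.05, 27.1% of the 85 CpG-poor and 11.0% of the 172 CpG-rich tested lncRNA starts were higher. The same share was 11.5% and 8.91% in those CpG classes of protein-coding starts, 22.8% in the other regions away from gene ends and 14.8% over all tested regions. By adjusted p, 1 of the 85 with under 5 CpG was called (1.18%), 2 of 70 with 5 to 9 (2.86%), 4 of 51 with 10 to 19 (7.84%) and 1 of 172 with 20 or more (0.581%), against 1.02% of all tested regions. The called share was thus highest in the class with 10 to 19 CpG. CpG-rich lncRNA starts also had more reads, with a median mean of 50.0 against 13.3 at CpG-poor ones, and the part of signal in this difference was not tested.

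**Figure D5:**
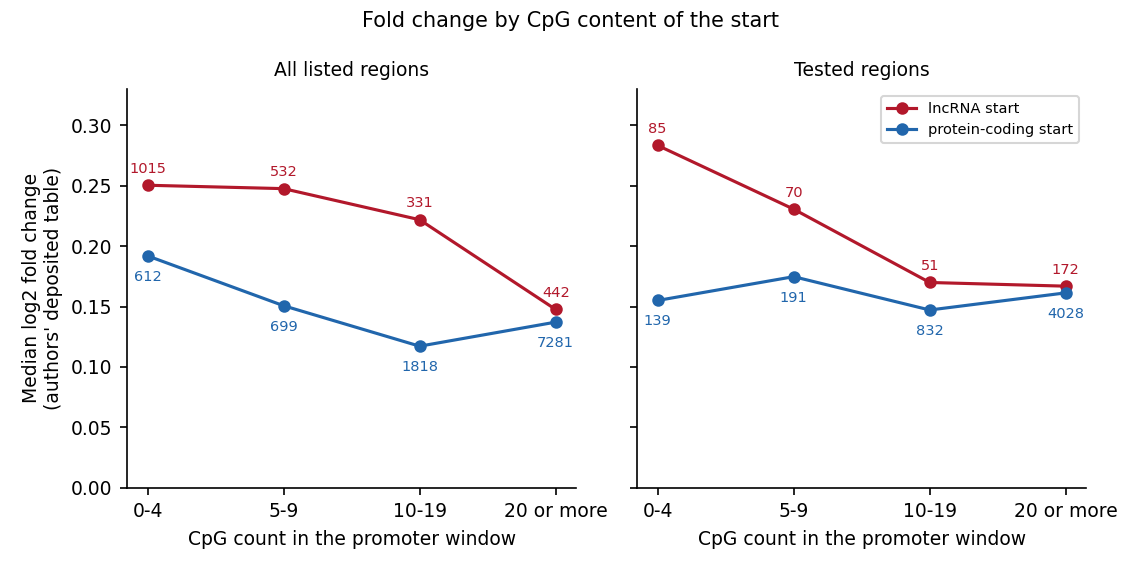
Median log2 fold change (authors' deposited table) by number of CpG in the 300-base promoter window, for lncRNA start (red) and protein-coding start (blue) regions, with the number of regions beside each point, over all listed regions (left) and tested regions (right). The red line falls from 0.25 to 0.15 on the left and from 0.28 to 0.17 on the right, where the blue line ends at 0.16.

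CpG content also went with whether a lncRNA start was open at all. Of 8190 lncRNA starts more than 5 kb from protein-coding gene ends, 2348 had a region within 1 kb (28.7%), whereas 11402 of 15842 protein-coding starts did (72.0%). With 20 or more CpG in the window, 470 of 669 such lncRNA starts had a region (70.3%), and 90.9% of 8811 protein-coding starts. With under 5 CpG, 19.6% of 5096 lncRNA starts and 23.9% of 2623 protein-coding starts did. The table lists 1 set of regions for both treatments, so these shares describe the cell line and not octanoate.

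Among the motifs searched, TGANTCA, the AP-1 word, was found in 16.3% of the 2241 promoter windows of genes assigned to lncRNA start regions. All lncRNA windows in the table held it in 10.5% of cases, and all 27305 windows in 7.72%. AP-1 factors are FOS and JUN dimers that act downstream of growth signalling. LncRNA start regions with the word had a median log2 fold change of 0.26 per the authors' deposited table (384 regions) and those without had 0.20 (1936 regions). Over tested regions the medians were 0.28 (56) and 0.18 (322) per the authors' deposited table. Among regions with under 10 CpG the medians with and without were 0.27 (340 regions) and 0.24 (1207), per the authors' deposited table. With 10 or more CpG they were 0.25 (44 regions) and 0.17 (729). Over tested regions they were 0.29 (44) and 0.21 (111) in the first class, and 0.21 (12) and 0.17 (211) in the second. GC boxes were in 26.1% of these windows, E-boxes in 5.62%, M-boxes in 4.55%, CRE words in 1.38%, TATA boxes in 15.7% and CCAAT boxes in 34.3%, against 44.5%, 7.41%, 3.01%, 1.97%, 12.0% and 35.7% of all windows. All lncRNA windows held them in 25.4%, 5.44%, 4.01%, 1.14%, 15.2% and 34.8% of cases, so for these motifs the set lay close to lncRNA promoters in general. The PPAR response element was in 0 windows of this set and in 0.022% of all windows. The E-box went with lower values, 0.15 with it (130 regions) and 0.22 without, and so did the GC box, 0.18 (605 regions) and 0.23, per the authors' deposited table. Regions with either word also had more reads, with median means of 30.1 against 19.9 for the E-box and 34.8 against 16.7 for the GC box. With and without the word, medians were 0.25 and 0.21 for the M-box, 0.17 and 0.22 for the CRE, 0.22 and 0.21 for the TATA box, and 0.23 and 0.20 for CCAAT, per the authors' deposited table. A match is a description of letters, and the absence of one says nothing about a factor.

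Values near the limits of the rule are given for orientation. Regions in the last 100 bp inside the 1 kb limit had a median of 0.27 per the authors' deposited table (92 regions), and those in the first 100 bp outside it had 0.22 (97 regions). Regions of the set that lay up to 1 kb farther than 5 kb from a protein-coding gene end had 0.09 per the authors' deposited table (63 regions). Those left out because they lay up to 1 kb nearer than this limit had 0.16 (63 regions). Regions that covered the start had 0.19 per the authors' deposited table (1354 regions, median mean 31.2), and those beside it 0.25 (966 regions, median mean 11.8). Over tested regions both medians were 0.20 (327 and 51 regions), so this difference was not seen there.

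Starts of marker genes gave only a weak check of cell identity. Of 9 melanocytic or neural crest markers, 6 had a strand, and 3 of these had a region within 1 kb of the outermost start: DCT, MITF and PAX3. MLANA, TYR and TFAP2A had none there, and 72.0% of all protein-coding starts had one. The epithelial marker KRT5 and the blood cell marker PTPRC, the 2 other markers with a strand, had none.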

How the data were processed

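Trim Galore, cutadapt, FastQC, Bowtie2, Picard, MACS2, featureCounts, DESeq2, bedtools 2.29.1 and the build hg38 are named, without order or settings, per the submitters' processing notes. Any Tn5 shift of reads and the merging of peaks are not given in the sources used here. The authors deposited 1 table comparing octanoate with vehicle. Per the file headers, it holds the mean normalized read count (a signal averaged over the 4 libraries), the log2 fold change with its standard error, the Wald score, and the p-value with its adjusted form. It has 0 columns per library, so library depth is unknown and no interval from counts is given. The deposited adjusted p-value equalled Benjamini-Hochberg adjustment over 11185 regions, and the others are treated as not tested.

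Starts and strands came from the RefSeq tables of GRCh38.p14. A gene's start was its outer end on its strand, and 96.5% of these lncRNA starts were listed in the promoter table. Region starts were read as counted from 0 and are printed counted from 1. No test of groups was made from the table. Centred values subtract the tested median from the deposited log2 fold changes, with p from the deposited standard errors. Named regions were all those past the threshold, the 5 largest and 5 smallest among tested ones, the 5 highest means and every region of the 3 lists. The members and lists were chosen with earlier results of these data known. Scripts used Python 3.11.15, pandas 2.3.3 and SciPy 1.17.1, and were tested on simulated data.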

Additional observations from a re-analysis of the deposited data

How the results depend on the processing

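The count of 8 lncRNA start regions past the threshold became 15 at an adjusted p of 0.1, 3 at 0.01 (0.313% of all tested regions passed), 3 when adjustment covered all regions, 0 after centring on the tested median, and 2 without LOC genes. Stricter or wider adjustment and fewer genes lower the count by construction. Without LOC genes the share of tested regions fell as well, since these genes held 6 of the 8 calls but 196 of the 378 tested regions. With other windows (500 bp or 2 kb), 10 kb from gene ends, regions outside protein-coding genes, autosomes, or, chosen after seeing the data, every listed lncRNA start, lncRNA genes with no strand, or distance from listed protein-coding starts, it stayed between 7 and 10. The median of 0.21 became 0.025 after centring. The difference from protein-coding starts became 0.040 in tested regions, where the cause was not tested. Otherwise it ran from 0.056 to 0.091, and the difference from other regions from -0.061 to -0.027. After centring, 6 tested named regions turned below 0 because the subtracted median exceeded them: MIR17HG -0.10, MEF2C-AS1 -0.12, SNHG5 -0.086, MIR181A1HG -0.093, MIR1915HG -0.10 and MIR3142HG -0.16. Among named regions not tested, LINC01116 (-0.035) and MIR5689HG (-0.16) did too. No paired analysis was possible because only pooled values were given, and for the same reason leaving out a replicate was not run. The 1942 regions below the tested mean have no adjusted p, and what library depth would limit is unknown.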
